A study of Xenopus laevis with 6 samples.

Results

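The genes described here are the cadherins, protocadherins, claudins, integrins, ephrins, Eph receptors, collagens, fibronectin gene fn1 and small GTPase gene rnd1 that the array of this study measured in Xenopus laevis animal caps. They were chosen by symbol, as every probe set with 1 annotated symbol that starts with cdh, pcdh, itga, itgb, cldn, efna, efnb, epha, ephb, lama, lamb, lamc or col and a digit, or that is fn1 or rnd1. This gave 96 probe sets of 68 genes, among 9304 probe sets with 1 symbol and 15491 tested in all. Where a gene had several probe sets, the one with the highest mean over the 6 arrays was used. The 68 genes were 8 cadherins, 4 protocadherins, 9 claudins, 17 integrins, 6 ephrins, 6 Eph receptors, 15 collagens, 1 fn1 and 2 rnd1 genes. No laminin gene was found by this rule. X. laevis has a duplicated genome, and the endings .L and .S tell the 2 copies of a gene apart (L for the longer chromosome of a pair, S for the shorter). Each copy counted as a gene. The symbol itgb1bp2.L matched the rule and was kept among the integrins, although it is named for a protein that binds an integrin. The symbols itgb2-a and itgb2.L were counted as 2 integrins. Their chosen probe sets have the same name up to a letter A or S, so they may stand for 1 transcript.

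Animal caps are explants of the ectoderm around the animal pole, and all caps here were at gastrula stage 10.5, with the embryos' sex given as mixed. The 3 groups of 2 arrays were uninjected caps, caps expressing Mixer, a homeodomain transcription factor, and caps expressing Sox17beta, a transcription factor with an HMG box. Both factors are known regulators of endoderm. The sources used here give no dose, no number of caps per array and no clutch for a replicate. The p-values of fits without a replicate block, described below, reflect array-to-array spread within these groups, which may be technical. Those of fits with the block reflect only the spread left after a shift shared by arrays of the same number is removed. That spread may be technical too. The question of the study was which genes each factor targets in endoderm development.

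Cells of an embryonic sheet hold together through cadherins, which join neighbours and are linked to actin by catenins, and seal against each other through claudins of the tight junction. Integrins are paired alpha and beta chains that hold cells to fibronectin, collagens and other matrix. Ephrins on one cell and Eph receptors on the next signal at contact and are known for keeping tissues apart at boundaries. In the Xenopus gastrula, C-cadherin, fibronectin and ephrin signalling are known to take part in the sorting and movement of ectoderm, mesoderm and endoderm.

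Values are log2 expression values per probe set as deposited, and a difference is between group means on that scale. Array medians were 6.5 to 6.55. The array carries 44 probe sets for bacterial and synthetic sequences that should be absent from frog RNA, and the highest of them on an array is used below as a mark of background. It stood at 5.90 to 6.09 on 5 arrays and at 6.62 on Sox17beta replicate 1, where 48.5% of all probe sets lay above it, against 57.8% to 60.7% on the others. Of the 68 genes, 24 lay above this mark on all 6 arrays, 30 on none and 14 on some. The injected genes read as labelled, with mixer.L higher by 7.56 in Mixer caps and the gene-specific probe set of sox17b.1.S higher by 6.70 in Sox17beta caps. In Mixer caps that probe set was also higher, by 2.675, and another probe set of sox17b.1.S by 4.135. Both injected groups thus read higher than uninjected caps for sox17b.1.S. In Sox17beta caps mixer.L differed by 0.18. On each uninjected array 5 of 15 epidermal markers and 3 of 8 neural plate markers were not above the mark. The counts there were 7 of 7 for organizer markers, 7 of 10 for endoderm markers and 6 of 8 for blood and vessel markers. Mesoderm markers not above the mark numbered 9 and 12 of 12 on the 2 arrays.

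Most of the 68 genes differed little between the groups, with means above the uninjected ones for 35 and below for 33 in Mixer caps and for 41 and 27 in Sox17beta caps. None of the 68 was called in the fit without a replicate block, and the calls described below, 9 falls in Sox17beta caps and 2 rises in Mixer caps among them, come from the fit with it. A limma fit with a mean per group and p-values adjusted over all 15491 probe sets called 0 of the 68 in Mixer caps, 0 in Sox17beta caps and 0 between them, where 0.0387%, 0.0194% and 0.0581% of all probe sets were called. The same fit with an intensity trend in its prior spread also called 0 of the 68 in each comparison. At an unadjusted p under 0.05 the fit with neither block nor trend held 7 of the 68 in Mixer caps (10.3%, against 2.87% of all probe sets). In the same fit it was 12 in Sox17beta caps (17.6%, against 6.26%) and 9 between the injected groups (13.2%, against 3.97%). The arrays varied together by replicate number, as the pairing check in the processing notes shows, and a fit with that number as a block left this variation out of the residual. With the block 2 of the 68 rose and 0 fell in Mixer caps (2.94%, against 1.31% of all probe sets called, 0.536% higher and 0.775% lower). In Sox17beta caps 0 rose and 9 fell (13.2%, against 5.45% of all probe sets called, 1.88% higher and 3.56% lower). Between the injected groups, 3 were higher in Mixer caps and 0 were lower (4.41%, against 1.56% of all probe sets called, 1.0% higher and 0.555% lower). The 68 genes were chosen with earlier results of these data known, so these shares describe the list and do not test it. Both copies of rnd1, which the rule adds by name, are among the 9, and rnd1.S is among the 3. Below, "rose" and "fell" are used of genes that passed with the block. The comparisons of Mixer and of Sox17beta caps with uninjected caps share the 2 uninjected arrays. None of these genes passed without the block, where their adjusted p-values ran from 0.183 to 1.

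The median difference of the 68 genes was 0.01 in Mixer caps and 0.07 in Sox17beta caps, against 0.03 and 0.04 over all probe sets. The median size of a difference, with its sign ignored, was 0.12 and 0.22 for the 68, against 0.11 and 0.14 over all. All 14 calls, of 11 genes, had the same direction in both replicates. The fit with the block favours genes whose differences are alike in both replicates, so this agreement is no separate support for the calls. The chosen probe sets of 27 of the 68 genes had the letter A in their names, and some of these genes had further probe sets. Among the 11 genes it was 5 (cldn4.L, cldn5.L, efna1.L, efna4.L and efnb2.S), each measured by that probe set alone. If A stands for antisense, which the files do not say, these values may not be of the gene's own transcript. The calls were not stable to the number of arrays. With the block and without uninjected replicate 1 or 2, Mixer replicate 1 or 2, or Sox17beta replicate 2, 0 of the 68 were called in any of the 3 comparisons. Each omission leaves 1 array in a group, whose own spread then does not enter the fit. Without Sox17beta replicate 1, the array with the highest background, the Sox17beta group was replicate 2 alone. Which genes passed there is therefore no separate support for the calls, and only differences are given. In Sox17beta caps they were -2.205 for cldn4.L, -1.415 for efna1.L, -1.99 for efna4.L, -1.17 for pcdh7.L and -1.85 for rnd1.S. That of itga2b.2.L was 2.0. Between the injected groups, rnd1.S was 1.71 higher in Mixer caps and itga2b.2.L differed by -1.92. In bulk tissue, fewer cells of a type and less RNA per cell cannot be told apart.

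**Figure D1:**
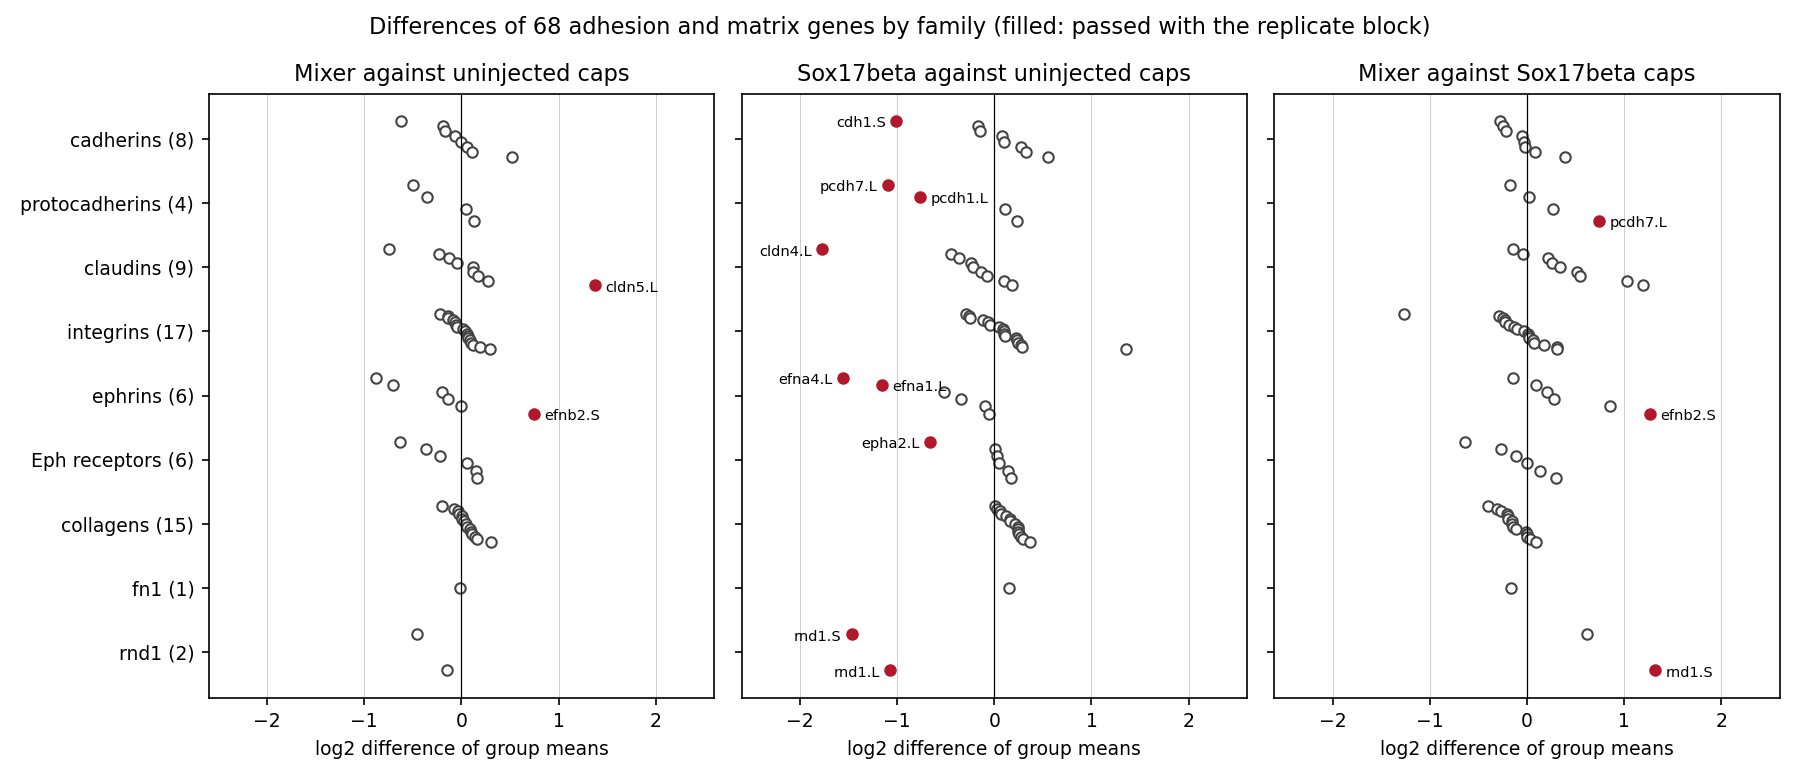
Log2 differences of group means (horizontal axes) for the 68 genes in the 3 comparisons, 1 point per gene, grouped by family with the number of genes in brackets. Filled red points passed at an adjusted p of 0.05 with the replicate block. In Sox17beta caps 9 filled points lie to the left, from -1.78 to -0.67, and in Mixer caps 2 lie to the right.

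Cadherins are calcium-dependent adhesion proteins. The gene cdh1.S, for E-cadherin, the cadherin of epithelia, fell in Sox17beta caps. It read 3.60 and 4.20 in uninjected caps (replicates 1 and 2), 3.15 and 3.41 in Mixer caps and 2.95 and 2.83 in Sox17beta caps. Both injected groups lay below both uninjected arrays, and the Sox17beta arrays were the lowest. The difference in Sox17beta caps was -1.01 ± 0.24 (SE), or 2.01-fold (adjusted p = 0.021 with the block and 0.37 without), and in Mixer caps -0.62 ± 0.24 (0.181 with the block). All 6 values of cdh1.S were below the highest absent control of their array, so the size of this fall is uncertain. Its Sox17beta values were also below the median absent control of their arrays (4.06 and 3.85). Its uninjected values lay below that median in replicate 1 (3.725) and above it in replicate 2 (3.82). Expression of cdh1.S in the caps is therefore not shown by these values.

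The cadherin that holds the early Xenopus embryo together is C-cadherin, the product of cdh3 in this species, whose RNA is maternal. The copy cdh3.L read 9.62 and 9.81 in uninjected caps, 9.50 and 9.56 in Mixer caps and 9.51 and 9.59 in Sox17beta caps. The copy cdh3.S read 9.45 and 9.35, 9.31 and 9.47, and 9.69 and 9.65 in the same order. Neither copy passed. The differences in Sox17beta caps were -0.17 ± 0.14 for cdh3.L and 0.27 ± 0.13 for cdh3.S, whose Sox17beta arrays lay above its other 4. In the RefSeq annotation of the X. laevis v10.1 assembly cdh1.S and cdh3.S are next to each other, with 0 protein-coding genes between them. The largest positive difference of a cadherin was that of cdh6.L, at 0.52 in Mixer caps and 0.55 in Sox17beta caps (adjusted p with the block 0.255 and 0.138), at values of 3.03 to 3.86 that were below the mark on every array. The other 6 cadherins, which are both copies of cdh3, both copies of the neural cadherin gene cdh2, cdh11.S and cdh20.L, did not pass. Their differences ran from -0.19 to 0.11 in Mixer caps and from -0.17 to 0.33 in Sox17beta caps.

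Protocadherins are cadherin relatives that take part in cell sorting. Of the 4 measured, 2 fell in Sox17beta caps. The gene pcdh7.L encodes NF-protocadherin, known in Xenopus for adhesion within the deep layer of the ectoderm. It read 4.12 and 4.29 in uninjected caps, 3.70 and 4.0 in Mixer caps and 3.07 and 3.15 in Sox17beta caps. The groups did not overlap, with the Sox17beta arrays lowest. Its difference was -1.10 ± 0.16 in Sox17beta caps, 2.14-fold (adjusted p = 0.00468 with the block and 0.183 without), and -0.36 in Mixer caps (0.248 with the block). It was 0.74 higher in Mixer than in Sox17beta caps (0.0304 with the block, 0.651 without). All 6 values of pcdh7.L were below the mark, so that both differences are uncertain in size. Its Sox17beta values were also below the median absent control of their arrays (4.06 and 3.85), and its uninjected values were above it (3.725 and 3.82). Expression of pcdh7.L in the caps is therefore not shown by these values.

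The gene pcdh1.L encodes the axial protocadherin of Xenopus and lay above the mark on all 6 arrays. It read 7.91 and 7.67 in uninjected caps, 7.29 and 7.29 in Mixer caps and 7.22 and 6.83 in Sox17beta caps. Every injected array was below both uninjected arrays. The fall in Sox17beta caps was -0.77 ± 0.19, 1.70-fold (adjusted p = 0.0197 with the block and 0.394 without), and the Mixer difference of -0.50 ± 0.19 did not pass (0.148 with the block). The paraxial protocadherin gene pcdh8.2.L differed by 0.05 in Mixer caps and 0.23 in Sox17beta caps, and pcdh8l.S by 0.13 and 0.11. These 2 genes did not pass and were below the mark on every array.

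Claudins form the strands of tight junctions and set what passes between epithelial cells. Among the 9 measured, cldn4.L had the largest fall of all 68 genes in Sox17beta caps and cldn5.L the largest rise in Mixer caps. The values of cldn4.L were 10.84 and 11.16 in uninjected caps, 9.98 and 10.52 in Mixer caps and 9.44 and 9.01 in Sox17beta caps. The 3 groups did not overlap, and the order was uninjected, Mixer, Sox17beta. The Sox17beta difference was -1.78 ± 0.27, 3.42-fold (adjusted p = 0.0072 with the block and 0.183 without). In Mixer caps it was -0.75 ± 0.27 (0.205 with the block), and between the injected groups 1.03 higher in Mixer caps (0.0886 with the block), which did not pass.

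The gene cldn5.L, for a claudin best known from endothelium, read 4.80 and 4.78 in uninjected caps, 6.68 and 5.65 in Mixer caps and 5.10 and 4.85 in Sox17beta caps. Both Mixer arrays were above the other 4, and Mixer replicate 1 was the one array on which the gene exceeded the mark. The rise was 1.38 ± 0.35, 2.59-fold (adjusted p = 0.0467 with the block and 1 without), and was 1.88 in replicate 1 and 0.87 in replicate 2. With 5 of the 6 values below the mark, both uninjected ones among them, the size of this rise is uncertain. The .S copy, cldn5.S, which was above the mark on all 6 arrays, differed by -0.13 in Mixer caps (0.771 with the block) and by -0.08 in Sox17beta caps. Of 8 blood and vessel markers, 0 rose in Mixer caps and 1, sox18.S, fell by 1.46 (adjusted p = 0.0203 with the block). Of all probe sets, 0.536% were higher and 0.775% lower there. The summed level of the 8 was 8.62 to 8.83 (log2) in uninjected and 8.31 to 8.39 in Mixer caps. On each Mixer array 7 of the 8 were not above the mark, so this list could show little change. Its relation to cldn5.L was not tested.

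The other 7 claudins were cldn1.S, cldn5.S, cldn7.L and both copies of cldn6.1 and cldn6.2, which lie next to each other on each chromosome in the RefSeq annotation. None passed, with differences of -0.24 to 0.28 in Mixer caps and -0.45 to 0.10 in Sox17beta caps. The lowest of the latter was that of cldn7.L, an epithelial claudin, which read 11.27 and 11.80 in uninjected and 10.63 and 11.55 in Sox17beta caps (adjusted p with the block 0.12). By this probe set its Sox17beta array was the lower within each replicate number, while the groups overlapped. The other probe sets of cldn7.L gave -0.41 and -0.465 in Sox17beta caps, where these groups did not overlap. They did not pass either (adjusted p with the block 0.0852 and 0.0613).

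Ephrins are ligands bound to the cell surface, by a lipid anchor in the A class and by a membrane-spanning part in the B class. In Sox17beta caps 2 of the 6 measured fell, both of the A class, and in Mixer caps 1 of the B class rose. The gene efna4.L read 8.66 and 8.60 in uninjected caps, 7.86 and 7.99 in Mixer caps and 7.49 and 6.66 in Sox17beta caps. The 3 groups did not overlap. Its fall in Sox17beta caps was -1.56 ± 0.29, 2.94-fold (adjusted p = 0.0107 with the block and 0.255 without), and was -1.17 in replicate 1 and -1.94 in replicate 2. In Mixer caps the difference was -0.71 ± 0.29 (0.239 with the block).

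The gene efna1.L read 7.53 and 8.40 in uninjected caps, 6.54 and 7.63 in Mixer caps and 6.57 and 7.04 in Sox17beta caps. Replicate 2 was the higher in every group, so the Mixer and uninjected arrays overlapped although each Mixer array was below the uninjected array of its number. Both Sox17beta arrays were below both uninjected arrays, and Sox17beta replicate 1 was just below its mark of 6.62. The fall in Sox17beta caps was -1.16 ± 0.48 without the block, with an SE of 0.16 with it, 2.23-fold (adjusted p = 0.00977 with the block and 0.839 without). In Mixer caps efna1.L differed by -0.88 (0.0585 with the block), just short of the threshold. In the RefSeq annotation efna4.L and efna1.L lie close together, with 1 protein-coding gene between them. The third A-class gene, efna3.L, differed by -0.01 in Mixer caps and -0.10 in Sox17beta caps and did not pass.

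Ephrin B2, the product of efnb2.S, is known for boundary formation and vessel identity in vertebrates. It read 6.42 and 6.25 in uninjected caps, 7.01 and 7.15 in Mixer caps and 5.82 on both Sox17beta arrays. Mixer arrays were the highest and Sox17beta arrays the lowest, with no overlap between the 3 groups. The rise in Mixer caps was 0.75 ± 0.14, 1.68-fold (adjusted p = 0.0441 with the block and 0.832 without). In Sox17beta caps the difference was -0.52 ± 0.14 (0.0625 with the block), and the direct comparison put efnb2.S 1.26 higher in Mixer than in Sox17beta caps, 2.40-fold (0.00703 with the block and 0.185 without). The Sox17beta values were below the mark and the uninjected and Mixer values above it, so the size of the last difference is uncertain. Probe sets with several symbols, efnb2 among them, were left out, so the values of efnb2.S rest on the chosen probe set alone. The remaining B-class genes, efnb1.L and efnb3.L, did not pass, with -0.14 and -0.21 in Mixer caps and -0.35 and -0.06 in Sox17beta caps.

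Eph receptors are the receptor tyrosine kinases that ephrins bind, and of the 6 measured 1 fell, in Sox17beta caps. This was epha2.L, a receptor for A-class ephrins found in many epithelia, with 8.36 and 8.24 in uninjected caps, 8.04 and 7.83 in Mixer caps and 7.58 and 7.69 in Sox17beta caps. Every group was separate from the others, in the same order as for cldn4.L. The fall was -0.67 ± 0.15, 1.59-fold (adjusted p = 0.0275 with the block and 0.333 without), and the Mixer difference was -0.37 (0.28 with the block). The largest difference in Mixer caps was that of epha4.L, which encodes a receptor for both classes, at -0.63 (0.14 with the block), from 6.30 and 6.05 in uninjected to 5.83 and 5.26 in Mixer caps. Its Sox17beta arrays, at 6.15 and 6.21, lay between the uninjected ones. The gene was above the mark on 3 arrays and on neither Mixer array, so the size of its Mixer difference is uncertain. The other 4 receptors, epha8.L, ephb4.L and both copies of ephb3, differed by -0.22 to 0.16 in Mixer caps and by 0.03 to 0.17 in Sox17beta caps and did not pass.

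**Figure D2:**
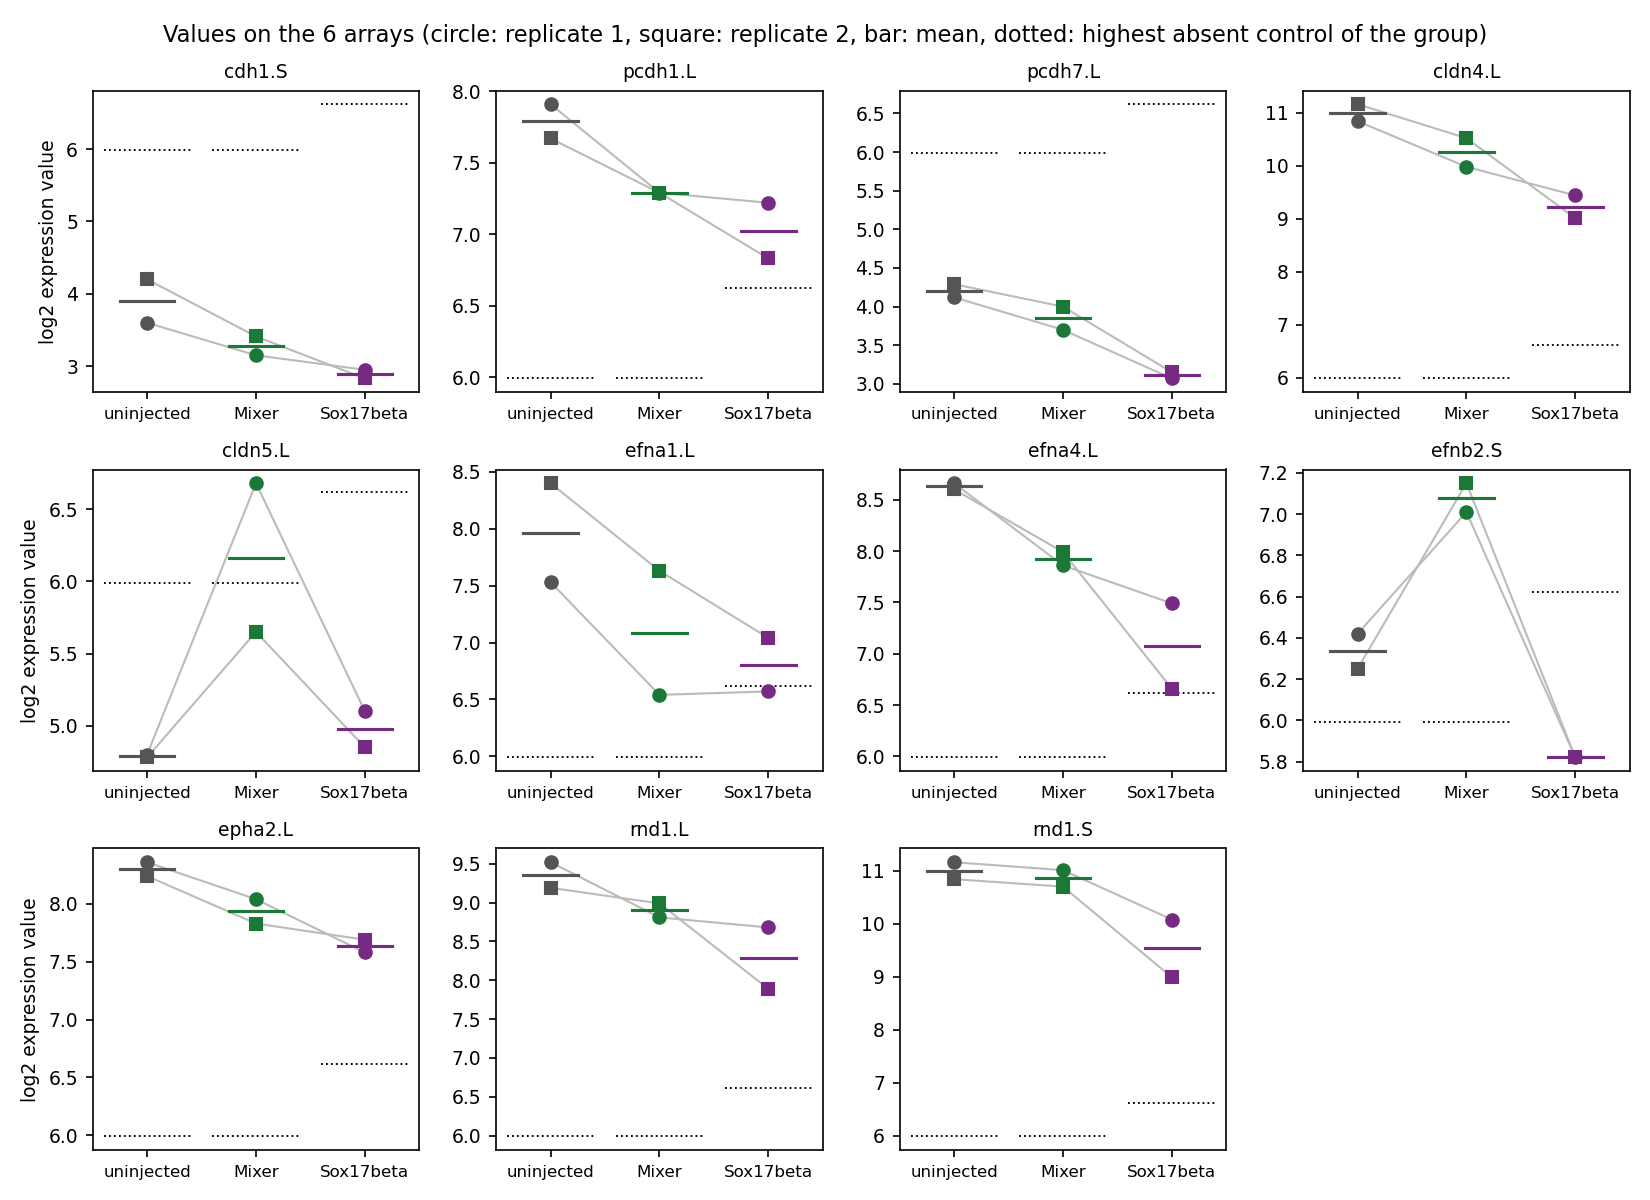
Log2 expression values (vertical axes) of the 11 genes that passed with the replicate block in at least 1 comparison, on each of the 6 arrays. Circles are replicate 1, squares replicate 2, grey lines join arrays of the same number, bars are group means and dotted lines the higher of the highest absent controls of a group's 2 arrays. The values of cdh1.S and pcdh7.L lie below every dotted line, while cldn4.L falls from 11 to 9.23 and efnb2.S is highest in Mixer caps.

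The gene rnd1 encodes a small GTPase that is known to loosen cell adhesion when supplied in excess in Xenopus embryos. Both copies fell in Sox17beta caps. The copy rnd1.S read 11.16 and 10.84 in uninjected caps, 11.01 and 10.70 in Mixer caps and 10.08 and 8.99 in Sox17beta caps. Both Sox17beta arrays were below the other 4, whose Mixer and uninjected values overlapped. The fall was -1.47 ± 0.39, 2.76-fold (adjusted p = 0.00967 with the block and 0.462 without), and was -1.08 in replicate 1 and -1.85 in replicate 2. In Mixer caps the difference was -0.15 (0.864 with the block), and rnd1.S was 1.32 higher in Mixer than in Sox17beta caps (0.0304 with the block and 0.933 without).

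The chosen probe set of rnd1.L read 9.52 and 9.19 in uninjected caps, 8.81 and 8.99 in Mixer caps and 8.68 and 7.89 in Sox17beta caps. The groups did not overlap. Its fall in Sox17beta caps was -1.07 ± 0.30, 2.10-fold (adjusted p = 0.035 with the block and 0.504 without). A second probe set of rnd1.L gave -0.58 in Sox17beta caps (0.344 with the block), which did not pass. In Mixer caps the 2 probe sets went opposite ways, at -0.46 for the chosen one and 0.50 for the other (0.474 and 0.579 with the block), so no direction is given for rnd1.L there. Of the 22 genes with several probe sets, this was the one in which a second probe set differed from the chosen by 0.5 or more in Mixer caps.

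**Figure D3:**
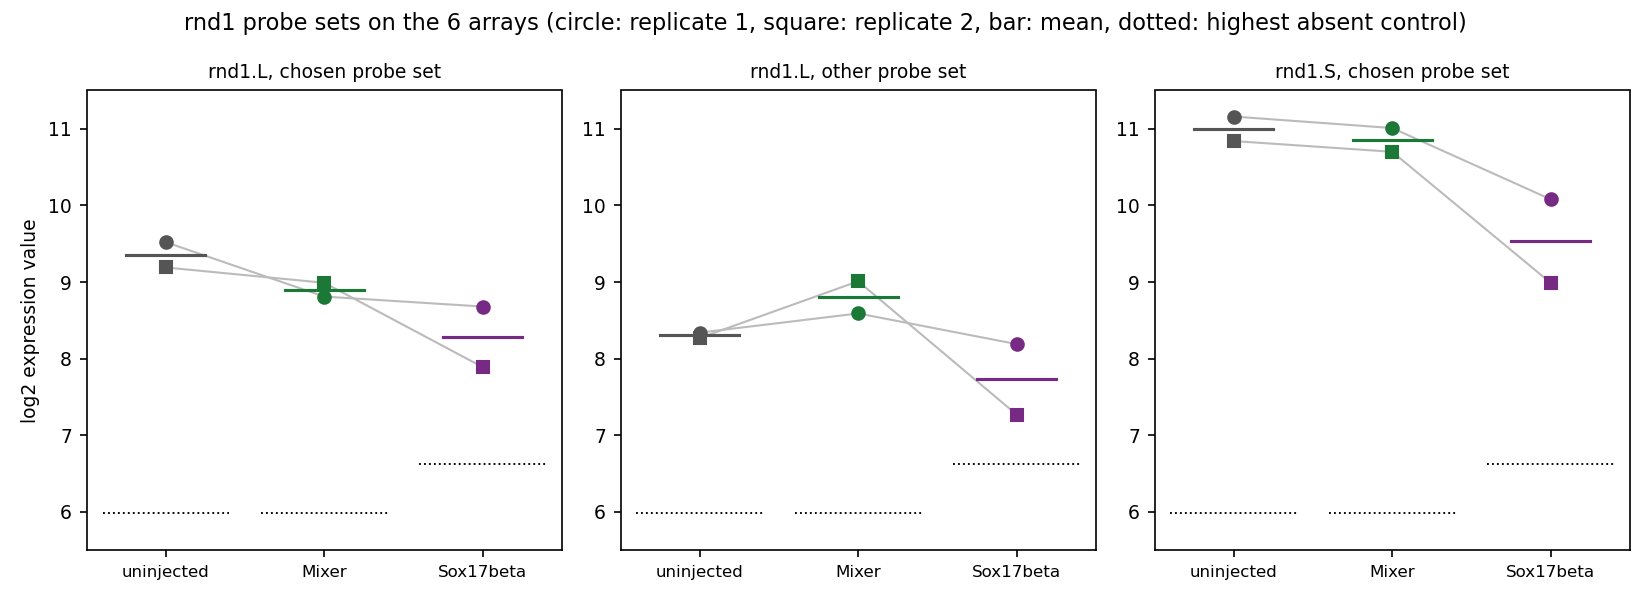
Log2 expression values (vertical axes) of the 3 probe sets of rnd1 on the 6 arrays, with circles for replicate 1, squares for replicate 2, grey lines joining arrays of the same number, bars for group means and dotted lines for the higher of the highest absent controls of a group's 2 arrays. The Sox17beta mean is the lowest of the 3 groups in each panel, while the 2 probe sets of rnd1.L differ in Mixer caps.

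Epidermal markers were compared between the groups as well. In Sox17beta caps 10 of 15 fell with the block and 0 rose, against 3.56% of all probe sets lower and 1.88% higher, and 0 of the 15 were called without the block. The grainyhead factor gene grhl3.L, a regulator of epidermal genes, fell by 1.65 (adjusted p = 0.0187 with the block and 0.28 without). The summed level of the 15 was 13.1 to 13.5 (log2) in uninjected caps, 12.4 to 13.0 in Mixer caps and 10.9 to 11.7 in Sox17beta caps, and the number not above the mark was 5 on both uninjected arrays, 7 and 4 on the Mixer arrays and 9 and 10 on the Sox17beta arrays. In Mixer caps 1 of the 15, itln1.L, rose by 3.65 and 0 fell. Among 9 endoderm markers other than the injected sox17b gene, 5 rose in Mixer caps with the block and 2 without it (0.536% of all probe sets were higher with the block), and 2 rose in Sox17beta caps with the block and 0 without. With the block 3 of 12 mesoderm markers rose in each injected group, 3 of 7 organizer markers rose in Sox17beta caps, and of 8 neural plate markers 2 rose and 1 fell there, while 0 genes of these 3 lists were called against uninjected caps without it. The part of these marker differences in the results on adhesion genes was not tested.

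Integrins are the matrix receptors of the cap cells, and fibronectin on the inner face of the ectoderm is their best known ligand in this embryo. None of the 17 integrin genes passed in any comparison. Fibronectin binds the pair of alpha5 and beta1 chains. The gene itga5.L read 6.5 and 6.53 in uninjected caps, 6.69 and 6.92 in Mixer caps and 6.69 and 6.78 in Sox17beta caps, all above the mark. By this probe set its injected arrays lay above its uninjected ones, by 0.29 in Mixer and 0.22 in Sox17beta caps (adjusted p with the block 0.358 and 0.362). Another probe set of itga5.L, also above the mark on all arrays, gave 0.055 and 0.18, and its groups overlapped. The copy itga5.S, not above the mark on any array, differed by -0.14 and -0.04. The beta1 copies itgb1.L and itgb1.S differed by 0.19 and 0.04 in Mixer caps and by -0.12 and -0.27 in Sox17beta caps. A second probe set of itgb1.L gave -0.20 in Mixer caps, so its direction there is not settled, and -0.19 in Sox17beta caps. The fibronectin gene fn1.S differed by -0.02 ± 0.50 in Mixer caps and 0.16 ± 0.50 in Sox17beta caps, with values of 10.04 and 10.60 in uninjected, 9.87 and 10.74 in Mixer and 9.90 and 11.05 in Sox17beta caps. The groups of fn1.S overlapped, and its larger spread was between replicate numbers.

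The largest difference of an integrin was that of itga2b.2.L, a member of the alpha chain family of the platelet integrin, in Sox17beta caps. It read 5.92 and 5.87 in uninjected caps, 5.99 and 5.97 in Mixer caps and 6.62 and 7.88 in Sox17beta caps. Both Sox17beta arrays were above the other 4, with replicate 2 far above replicate 1. The difference of 1.36 ± 0.41, 2.56-fold, did not pass (adjusted p = 0.0544 with the block and 0.576 without), and was 0.70 in replicate 1 and 2.01 in replicate 2. The gene was above the mark on 3 arrays, but not on uninjected replicate 2, Mixer replicate 1 or Sox17beta replicate 1. It was barely above on uninjected replicate 1 (5.92 against 5.9) and Mixer replicate 2 (5.97 against 5.96), so the size of its difference is uncertain. In Mixer caps it was 0.09. The other 16 integrin genes differed by -0.23 to 0.29 in Mixer caps and by -0.29 to 0.29 in Sox17beta caps. For itga3.L, which gave the lowest of these values in both, its 2 other probe sets were higher than in uninjected caps, by 0.03 and 0.10 in Mixer and 0.14 and 0.36 in Sox17beta caps, so its direction is not settled. Among the 17, 4 were above the mark on all arrays and 9 on none.

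Collagens form the fibres and sheets of the matrix, and none of the 15 genes passed. The largest difference in Mixer caps was that of col18a1.S, a basement membrane collagen, at 0.31 (adjusted p = 0.334 with the block), with 5.43 and 5.66 in uninjected and 5.82 and 5.88 in Mixer caps. In Sox17beta caps it was that of col9a1-b, a cartilage collagen, at 0.37 (0.155 with the block), with 4.45 and 4.56 in uninjected and 4.69 and 5.05 in Sox17beta caps. Neither gene was above the mark on any array. All 15 collagens had Sox17beta means above the uninjected ones, by 0.01 to 0.37. Their median difference was 0.27 in replicate 1 and 0.06 in replicate 2. The median of the 44 absent controls was likewise 0.34 higher on the Sox17beta than on the uninjected array in replicate 1 and 0.03 higher in replicate 2, and 12 of the 15 collagens were not above the mark on any array. The part of background in the collagen values was not tested. By the chosen probe sets, the network collagen gene col4a2.L was the only one of the 15 above the mark on all 6 arrays. It read 7.27 and 7.28 in uninjected, 7.37 and 7.28 in Mixer and 7.71 and 7.33 in Sox17beta caps, differing by 0.25 in the last. Another probe set of col4a2.L read 4.08 to 4.39 and was above the mark on 0 arrays, so the level of this gene is not settled. The chosen probe set has an A in its name and the other an S.

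The replicate number set some members apart more than the injections did. The tight junction gene cldn6.1.S had replicate 2 minus replicate 1 differences of -1.27 in uninjected, -1.76 in Mixer and -2.26 in Sox17beta caps. Fibronectin, fn1.S, was higher in replicate 2 by 0.56, 0.87 and 1.15, and cldn7.L by 0.53, 0.70 and 0.92, in the same order. The beta1 integrin copy itgb1.S gave -0.67, -0.79 and -0.46. In 33 of the 68 genes replicate 2 stood on the same side of replicate 1 in all 3 groups. The share over all probe sets was not computed, so this cannot be called particular to these genes. The median size of the difference between a group's 2 arrays was 0.17, 0.17 and 0.16 for these genes in uninjected, Mixer and Sox17beta caps, against 0.24, 0.27 and 0.27 over all probe sets.

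**Figure D4:**
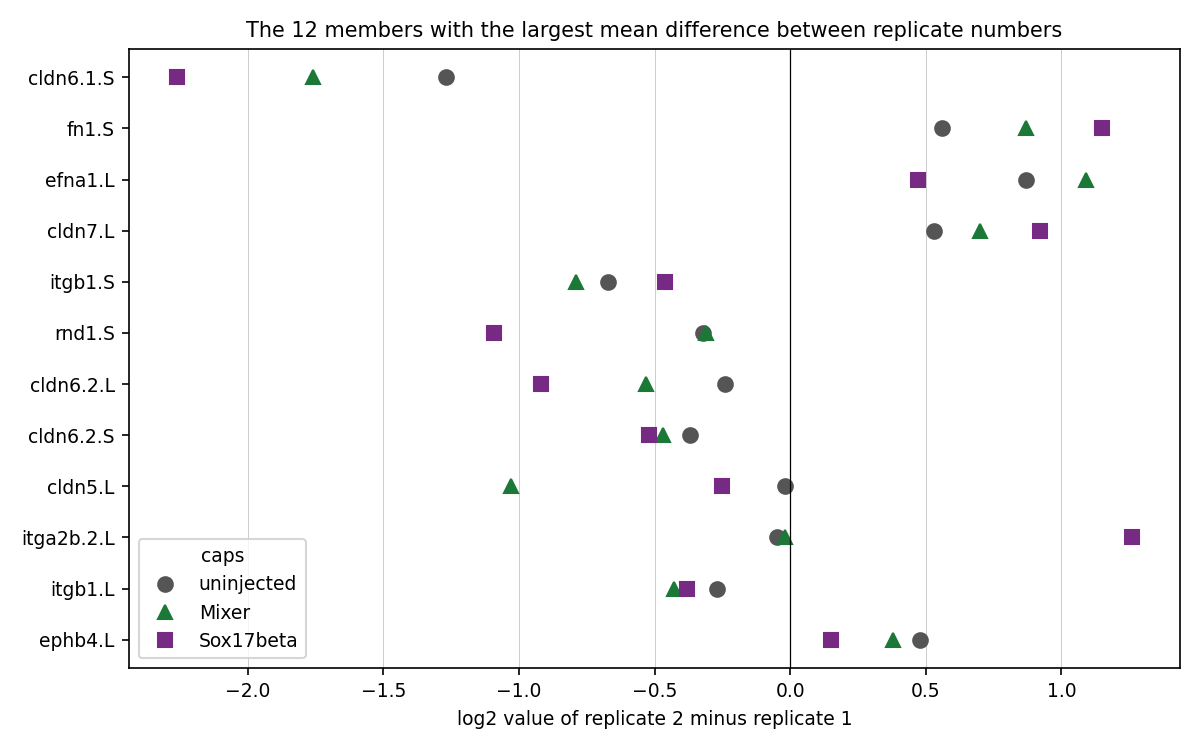
Log2 value of replicate 2 minus replicate 1 (horizontal axis) in each group for the 12 genes with the largest mean of these differences. Circles are uninjected, triangles Mixer and squares Sox17beta caps. The 3 points of cldn6.1.S lie between -2.26 and -1.27, and those of fn1.S between 0.56 and 1.15.

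Both copies of 10 genes were measured. By the chosen probe sets, their differences against uninjected caps were within 0.5 of each other for 9 of the 10 in Mixer caps and for all 10 in Sox17beta caps. Among these genes cdh2.S, itga5.S and both copies of col18a1 were not above the mark on any array, so their small differences say little. The exception was cldn5 in Mixer caps, where the .L copy exceeded the .S copy by 1.5. In Sox17beta caps the rnd1 copies differed by -1.07 (.L) and -1.47 (.S). With the second probe set of rnd1.L, at 0.495 in Mixer and -0.575 in Sox17beta caps, the rnd1 copies lay more than 0.5 apart in both. There rnd1.S was at -0.145 and -1.465. These gaps between copies were not tested.

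A further 75 genes of the same structures (catenins, desmosomes, tight junction plaque, integrin linkers, matrix proteins and enzymes, other adhesion proteins and repressors of cadherin genes) were set beside the 68. With the block 0 of the 75 were called in Mixer caps and 0 between the injected groups. In Sox17beta caps 1 rose and 1 fell, where 1.88% of all probe sets were higher and 3.56% lower, so these shares were below those of all probe sets. The syndecan gene sdc4.L, a cell-surface proteoglycan that binds fibronectin, fell by 1.63 (adjusted p = 0.0204 with the block and 0.28 without). The kindlin gene fermt1.S, an integrin activator of epithelia, rose by 0.52 (0.0491 with the block and 0.769 without). None of 14 catenin and desmosome genes and none of 9 tight junction plaque and related genes was called in any comparison, with medians of -0.14 and -0.07 in Mixer caps and -0.02 and -0.09 in Sox17beta caps.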

How the data were processed

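The 6 arrays were compared from the deposited log2 values per probe set, which the authors produced by RMA (named in the submitters' processing notes). This method corrects background, brings arrays to a common distribution and summarises probes. Neither its version nor whether 1 run covered all arrays is stated in these sources. The deposited log2 values lay between 2.24 and 14.07, and no further logarithm or normalization was applied. Differences of probe sets near background can be understated. The number of arrays limits the precision, and 0 columns belonged to other samples.

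Of 15611 probe sets, 120 controls were left out. The platform annotation gave 9304 of the tested probe sets 1 symbol, 195 several and 5992 none. By gene identifier 67 of the 68 members matched RefSeq (X. laevis v10.1), with 0 symbols changed, and itgb2-a did not match. Probe sets with several symbols (3 of col2a1 and efnb2) were left out. Probe set names carry a letter S or A, which may stand for sense and antisense but is not explained in the files. For 8 members an accession had probe sets of both letters, and the A set was chosen by level in 6 of them. Of the 68 chosen probe sets, 27 carry an A. Gene order was read from the RefSeq annotation, and no coordinates are given.

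Group means were fitted with lmFit and eBayes in limma 3.58.1 (R 4.3.3), with 6 arrays in 1 fit. Tests were two-sided, with Benjamini-Hochberg adjustment over all probe sets of a comparison and a threshold of 0.05. The fit was tested on simulated data. Samples were grouped and numbered by their labels. Deviations from group means correlated between same-numbered arrays at 0.867 (uninjected and Mixer), 0.732 (uninjected and Sox17beta) and 0.776 (Mixer and Sox17beta), and the first principal component, with 55.5% of the variance, separated the numbers. The replicate block, listed as an alternative, is therefore printed beside each call. The log2 differences are the same in both fits. Errors are SEs of the fit without the block unless stated.

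Members and lists were chosen with earlier results of these data known. Of the lists of related genes, 1 is left out here. Genes named with values were those called in either fit, the largest difference against uninjected caps in each family and injected group, rnd1, fn1 and the other copy of any called gene. Others, such as cdh3, itgb1, col4a2.L, cldn6.1.S and cldn7.L, were named after their values were seen. The summed level of a marker list is the log2 of its summed linear values. Python 3.11.15 and matplotlib 3.10.9 served for tables and figures.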

Additional observations from a re-analysis of the deposited data

How the results depend on the processing

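Counts are given for Mixer caps, Sox17beta caps and then Mixer over Sox17beta caps. Of the 68 genes, 2, 9 and 3 were called with the replicate block, and 0, 0 and 0 with no replicate block. Alternatives on the block were chosen after seeing the data. Single-array omissions with the block gave 0 to 0, 0 to 6 and 0 to 2, the 6 and the 2 without Sox17beta replicate 1, and without the block 0 to 0 in each. Of all probe sets, 6, 3 and 9 were called without the block and 203, 844 and 241 with it. Single-array omissions moved the former to 0 to 1, 0 to 5 and 1 to 1, and the latter to 0 to 2, 0 to 582 and 0 to 136 (12 without either uninjected array). Quantile normalization called 5 in Sox17beta caps, and an intensity trend 13 there and 14 between the injected groups. Omissions leave 1 or 2 residual degrees of freedom and 1 array in a group, whose own spread then does not enter the fit. With the block, quantile normalization called 3, 11 and 4 of the 68. Of these, 2 were higher and 1 lower in Mixer caps, and 1 was higher and 10 lower in Sox17beta caps. Restriction to probe sets above the 25th percentile called 2, 7 and 2, with cdh1.S and pcdh7.L left untested by that filter. The median difference of the 68 genes between Mixer and Sox17beta caps was -0.0075, with 0.0192 after quantile normalization, 0.02 above the 25th percentile, -0.015 with gene-specific or with S-named probe sets first, -0.0475 with every probe set, and -0.0575 to 0.015 without single arrays. The 14 called differences kept their direction in each alternative that tested them. The block, the intensity trend and the percentile filter do not alter a difference, and all 14 already had the same direction in both replicates. This agreement is therefore no separate support for the calls.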
